A study of Homo sapiens with 6 samples.

Results

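DEAD-box and DEAH-box proteins are ATP-driven enzymes that bind RNA, part its strands and move proteins off it. The genes described here are those named DDX or DHX with a number, other than DDX6, which was the target of the guides, and the RNA sensor genes DDX58 and DHX58. Of 53 rows of the expression table with such names, 50 were left after these 3 were set aside, and 46 reached a TPM (a level scaled for transcript length and for the total of its library) of 1 or more in at least 2 of 6 libraries. Those 46 genes, 32 named DDX and 14 named DHX, are the members, out of 18806 genes in the table and 11151 that passed the same minimum. The other 4 rows, DDX25, DDX3Y, DDX4 and DDX53, were listed at 0.10 TPM or less in every library. No row was named DDX3X, the paralog of DDX3Y, or DHX16, so the levels of these genes are unknown. DDX43 was the member nearest to the minimum, with 5.88 and 5.79 TPM in sgNS, 3.96 and 3.32 in sgDDX6.1, and 3.93 and 4.08 in sgDDX6.2.

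The libraries came from Mono-mac-6, an established line from a human acute myeloid leukemia of monocytic type with the MLL-AF9 fusion. A single Cas9-expressing clone received by lentivirus either sgNS, a control guide, or 1 of 2 guides against DDX6, sgDDX6.1 or sgDDX6.2, and cells of all 3 groups were kept under hygromycin B at 200 µg/ml together with blasticidin at 10 µg/ml. Poly(A)+ RNA was sequenced from 2 libraries of each group. The labels place the harvest at day 8 after infection while the design text gives 1 to 2 weeks of selection, so the day is uncertain. The cells are descendants of 1 clone, and nothing states that the libraries of a group were separate cultures, so the p-values below measure only the spread between these libraries, which may be technical.

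DEAD-box enzymes mostly open short RNA duplexes in place, while DEAH-box enzymes move along a strand and pull on it. Between them they act at nearly every stage of an RNA's life: they remodel the spliceosome, clear mRNA for export, fold ribosomal RNA in the nucleolus, help ribosomes scan, and sense or oppose viral RNA. DDX6 belongs to the DEAD-box class and works in the cytoplasm, in processing bodies, where it takes part in translational repression and decapping.

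Library totals were equal by construction, between 10794 and 11007 genes reached a TPM of 1 in a library, and the replicates of each group correlated at 0.998 (Pearson, log2 values across genes, which are not independent replicates). The targeted gene DDX6 was at 102 and 99.5 TPM in sgNS, 54.4 and 52.0 in sgDDX6.1, and 52.3 and 53.5 in sgDDX6.2, so both DDX6 guides lay apart from the control guide as labelled; mRNA left after cutting is no measure of protein. All 10 markers of a monocytic leukemia line reached 1 TPM in some library, led by LYZ; CD14, a defining monocyte marker, lay between 0.37 and 1.36 TPM. The summed level of these 10 was 10014 to 10511 TPM in sgNS, 14291 to 14874 in sgDDX6.1 and 15101 to 15555 in sgDDX6.2, nearly all of it LYZ (9531 to 14945 TPM over the libraries). Marker by marker, 5 of the 10 rose and 4 fell over both guides with a median log2 fold change of 0.083; MPO (-1.23), FCGR1A (-0.59), CD14 (-0.49) and ITGAM (-0.34) were those that fell. The part of these shifts in the results below was not tested. Of markers for T cells, B cells, erythroid, epithelial and fibroblast cells, CD8A, CD79A, CD79B, HBA1 and HBA2 reached 1 TPM in some library; CD3D, CD3E, CD3G, CD2, MS4A1, HBB, CDH1, KRT5 and KRT19 were among those at 0 in all 6. The summed T cell markers, CD8A alone, were at 3.39 to 3.54 TPM in sgNS, 0.92 to 0.99 in sgDDX6.1 and 3.12 to 3.31 in sgDDX6.2, and the B cell markers at 2.37 to 2.98, 1.89 to 1.99 and 4.52 to 5.23. In bulk RNA such as this, a smaller share of cells that express a gene cannot be told apart from less of its RNA per cell.

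Promoter windows are shown for 4 members, DDX60 and DDX60L, which fell with both guides, and DDX21 and DDX31, which had the widest gaps between the guides; they were chosen after their values were seen. Each runs 5′ to 3′ from 250 bases before to 50 bases after a RefSeq start site in GRCh38.p14. Capitals mark the core of the interferon-stimulated response element (GAAA, any 2 bases, GAAA) in DDX60 (chr4:168318703-168319002, minus strand) and DDX60L (chr4:168480443-168480742, minus strand), and CACGTG, the E-box bound by MYC and its relatives, in DDX21 (chr10:68956397-68956696, plus strand) and DDX31 (chr9:132669934-132670233, minus strand).
DDX60: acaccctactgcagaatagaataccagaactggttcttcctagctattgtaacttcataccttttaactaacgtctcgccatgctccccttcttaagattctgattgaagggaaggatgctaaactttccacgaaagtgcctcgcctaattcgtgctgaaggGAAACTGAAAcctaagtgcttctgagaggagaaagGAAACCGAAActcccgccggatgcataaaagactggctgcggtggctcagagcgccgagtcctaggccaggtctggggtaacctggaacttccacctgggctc
DDX60L: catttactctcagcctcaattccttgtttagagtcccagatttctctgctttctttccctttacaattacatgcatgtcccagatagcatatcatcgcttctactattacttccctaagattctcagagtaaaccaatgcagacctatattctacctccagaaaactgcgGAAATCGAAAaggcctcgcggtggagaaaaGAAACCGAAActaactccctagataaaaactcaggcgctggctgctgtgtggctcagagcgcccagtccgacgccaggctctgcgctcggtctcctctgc
DDX21: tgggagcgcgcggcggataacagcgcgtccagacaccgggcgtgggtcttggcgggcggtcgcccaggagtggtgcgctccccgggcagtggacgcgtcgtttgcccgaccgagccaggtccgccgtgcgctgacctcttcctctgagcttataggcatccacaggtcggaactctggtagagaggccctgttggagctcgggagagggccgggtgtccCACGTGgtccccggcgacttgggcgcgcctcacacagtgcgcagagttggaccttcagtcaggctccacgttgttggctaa
DDX31: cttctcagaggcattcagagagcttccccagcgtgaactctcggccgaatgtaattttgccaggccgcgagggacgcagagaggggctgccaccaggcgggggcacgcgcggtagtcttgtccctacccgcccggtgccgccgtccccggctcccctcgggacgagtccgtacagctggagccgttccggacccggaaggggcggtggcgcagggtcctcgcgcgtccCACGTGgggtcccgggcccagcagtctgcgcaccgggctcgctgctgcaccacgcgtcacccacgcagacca
DDX60 and DDX60L each held this core at 2 places, which began 88 and 53 bases and 80 and 50 bases before the start. DDX21 held CACGTG 31 bases and DDX31 22 bases before the start, in 1 of the 2 and 1 of the 3 windows listed for these genes. Both motifs were searched on both strands in the windows of 42 members; DDX18, DDX49, DDX52 and DHX33 had no entry. The interferon element core was in 3 of the 42 members (7.14%: DDX60, DDX60L and DHX15), against 4.11% of 8717 tested genes with a window and 3.57% of all 35116 windows. CACGTG was in 9 of the 42 (21.4%), against 13.1% of the tested genes and 7.26% of all windows; DDX5, DDX54, DHX32, DHX34, DHX35, DHX37 and DHX40 held it besides DDX21 and DDX31. These matches describe letters in a window and not bound sites.

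Across the members, levels spanned a wide range and changes were small. The mean level over the 6 libraries ran from 4.49 TPM for DDX43 to 633 for DDX5, with a median of 44.1. Summed over all 46, it was 4400.5 and 4380.1 TPM in sgNS, 4661 and 4510.2 in sgDDX6.1 and 4187 and 4204 in sgDDX6.2, so sgDDX6.1 libraries lay above and sgDDX6.2 libraries below the control. Abundant members weigh most in this sum. With sgDDX6.2, DDX5 had 598 and 589 TPM and DDX39B 438 and 458, against 689 and 675 and 581 and 580 in sgNS. DHX9 rose, at 302 and 299 TPM against 254 and 253. Outside ribosome assembly the sum was 3426 and 3423 TPM in sgNS, 3464 and 3342 in sgDDX6.1 and 3197 and 3219 in sgDDX6.2. There the sgDDX6.1 libraries lay on both sides of the control. With both guides averaged against sgNS, 18 members rose and 12 fell at a limma adjusted p under 0.05 and 16 were not called; that is 30 of 46, close to the 66.7% of all tested genes that were called (33.8% higher and 32.9% lower). The median log2 fold change of the members was 0.073, against 0.00084 over all genes tested, and the median size regardless of sign 0.18 against 0.23. No member changed by 1 or more on the log2 scale, as 380 of the 11151 genes did and as DDX6 nearly did (-0.91, SE 0.041). Against the same sgNS libraries, 26 members rose and 11 fell with sgDDX6.1, where 61.6% of all genes were called (31.8% higher, 29.7% lower), and 12 rose and 14 fell with sgDDX6.2, where 64.2% were called (31.5% higher, 32.7% lower). Both sgDDX6.1 libraries lay above both controls in 29 members and below in 11, against 40.3% and 38.7% of all genes. For sgDDX6.2 these counts were 18 and 19, against 40.3% and 42.8%. Over both guides, all 4 libraries lay above the controls in 18 members and below in 11, against 31.5% and 31.9%. The plot of change against level places the helicases inside the main cloud of genes, and the plot by role shows each guide's value.

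**Figure D1:**
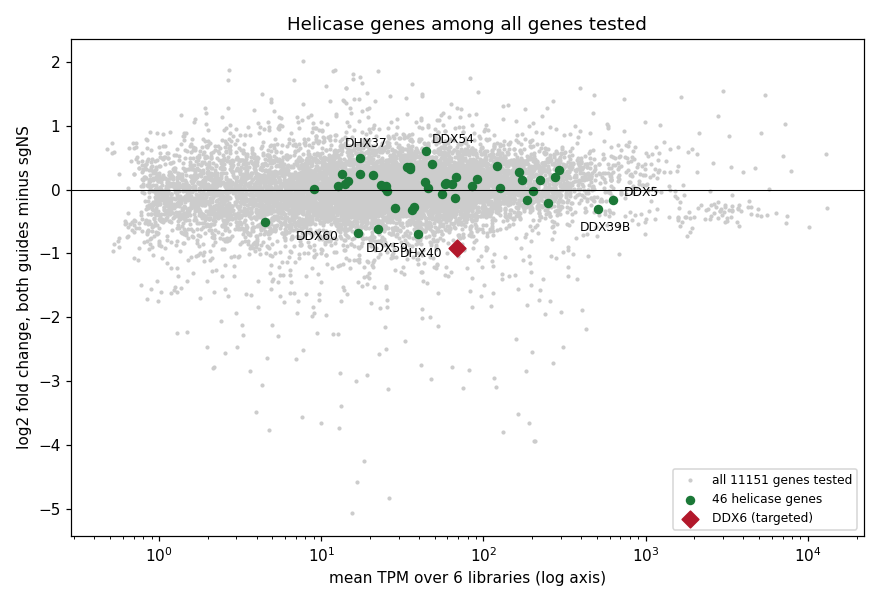
Log2 fold change over both DDX6 guides (vertical axis, log2(TPM + 1) scale) against mean TPM over 6 libraries (horizontal log axis), for all 11151 genes tested (grey), the 46 helicase genes (green) and DDX6 (red diamond). The helicase genes lie between -0.69 (DHX40) and 0.61 (DDX54), while all genes reach down to -5.07.

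**Figure D2:**
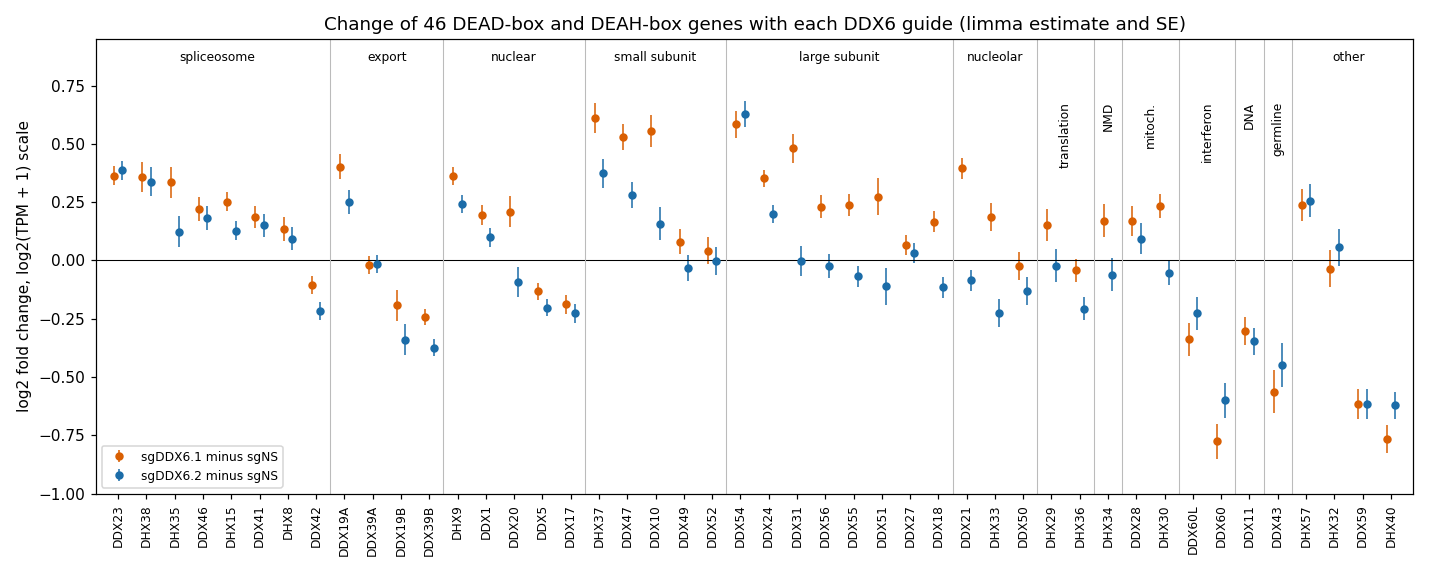
Log2 fold change of each of the 46 members with sgDDX6.1 (orange) and sgDDX6.2 (blue) against sgNS, as limma estimate with SE bars, grouped by role (small and large subunit refer to ribosome assembly, NMD is nonsense-mediated decay). Spliceosome genes lie above 0 with both guides except DDX42, and most ribosome assembly genes lie higher with sgDDX6.1 than with sgDDX6.2.

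Most spliceosome helicases rose. Such enzymes drive set steps of splicing, and 7 of 8 rose over both guides and 1 fell (median log2 fold change 0.20), against 33.8% and 32.9% of all tested genes; all 8 also passed with sgDDX6.1 alone, 7 up and 1 down, and 6 with sgDDX6.2 alone, 5 up and 1 down. The single guides' calls were less firm: with sgDDX6.1, DDX42 was lost in 8 and DHX8 in 7 of 17 alternatives, and the 5 up with sgDDX6.2 became 3 without sgNS replicate 2, without either sgDDX6.2 replicate or without the variance trend (from DHX15, DDX41 and DDX46). DDX23, which acts as the spliceosome is activated, had 100.5 and 102 TPM in sgNS, 132 and 129 in sgDDX6.1, and 132 and 133 in sgDDX6.2. Its log2 fold change was 0.38 (SE 0.035, limma adjusted p = 2.33e-06), and all 4 sgDDX6 libraries lay above both sgNS libraries. DHX38, which remodels the spliceosome between the steps of splicing, had 27.3 and 30.0 TPM in sgNS, 38.4 and 35.5 in sgDDX6.1, and 35.9 and 36.9 in sgDDX6.2, a change of 0.35 (SE 0.055, limma adjusted p = 0.000159) with both sgNS libraries below all others. DHX35, found in catalytic spliceosomes, had 17.8 and 19.3 TPM in sgNS, 24.5 and 22.9 in sgDDX6.1, and 20.7 and 19.9 in sgDDX6.2. Its change of 0.23 (SE 0.058, limma adjusted p = 0.00409) was larger with sgDDX6.1 (0.33) than with sgDDX6.2 (0.12, not called), and this gap passed the test between the guides (-0.21, SE 0.067, limma adjusted p = 0.0288). That over both guides was lost without sgNS replicate 1 and with the 4 sgDDX6 libraries as 1 group (adjusted p between 0.00065 and 0.0755 over the alternatives).

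Among the other spliceosome members, DDX46, which helps settle the branch site, changed by 0.20, and DHX15, which takes spent spliceosomes apart, by 0.19. DDX41, in which inherited mutations predispose to myeloid leukemia, changed by 0.17, and DHX8, which releases the spliced mRNA, by 0.11. The last of these was the least firm: its limma adjusted p was 0.0358 and it was not called with the 4 sgDDX6 libraries as 1 group, or without either sgNS or either sgDDX6.2 replicate (up to 0.203). DDX42, a partner of the branch site complex, was the member that fell (-0.16); after removal of a trend on base composition its adjusted p was 0.0528.

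Export helicases split, and they split within pairs of near relatives. DDX39B (also UAP56), which loads export factors on mRNA as part of the TREX complex, had 581 and 580.0 TPM in sgNS, 491 and 489.8 in sgDDX6.1, and 438 and 458 in sgDDX6.2. It fell with a log2 fold change of -0.31 (SE 0.031, limma adjusted p = 3.74e-06), was lower again with sgDDX6.2 than with sgDDX6.1 (-0.13, SE 0.035, limma adjusted p = 0.015), and no library of 1 group overlapped another. Its paralog DDX39A had 201 and 204 TPM in sgNS, 202 and 198 in sgDDX6.1, and 199 and 203 in sgDDX6.2, a change of -0.018 with a 95% interval of -0.090 to 0.055, so any fall was far smaller than that of DDX39B. The difference between these paralogs was not itself tested.

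DDX19A and DDX19B, which sit next to each other on chromosome 16 and strip proteins from mRNA as it leaves the nuclear pore, went opposite ways. DDX19A had 30.5 and 29.8 TPM in sgNS, 39.8 and 40.4 in sgDDX6.1, and 35.3 and 36.8 in sgDDX6.2, a change of 0.33 (SE 0.046, limma adjusted p = 6.56e-05). DDX19B had 40.0 and 44.0 TPM in sgNS, 37.0 and 36.1 in sgDDX6.1, and 31.4 and 34.6 in sgDDX6.2, a change of -0.27 (SE 0.057, limma adjusted p = 0.00137). Both sets of sgDDX6 libraries were clear of the sgNS libraries, above for DDX19A and below for DDX19B. Sequence bears on these values: of all 50-base stretches of the longest coding transcript (GENCODE release 29), 62.2% in DDX19A and 70.0% in DDX19B also occur in transcripts of other genes, chiefly each other, so how reads were divided between them is uncertain. The same share was 95.2% for DDX39B, through an annotated readthrough transcript with ATP6V1G2, and 0% for DDX39A.

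Nuclear helicases with several roles included the most abundant members. DDX5 and DDX17, paralogs that work as coregulators of transcription and splicing, both fell. DDX5 had 689 and 675 TPM in sgNS, 636 and 609 in sgDDX6.1, and 598 and 589 in sgDDX6.2, a log2 fold change of -0.17 (SE 0.031, limma adjusted p = 0.000495). DDX17 had 272 and 275 TPM in sgNS, 246 and 234 in sgDDX6.1, and 232 and 234 in sgDDX6.2, a change of -0.21 (SE 0.034, limma adjusted p = 0.000192). All 4 sgDDX6 libraries were below both sgNS libraries for each gene. For DDX5 the call was lost after removal of a trend on base composition (adjusted p = 0.147). DHX9 (RNA helicase A), which unwinds double-stranded RNA and RNA-DNA hybrids, moved the other way, with 254 and 253 TPM in sgNS, 335 and 318 in sgDDX6.1, and 302 and 299 in sgDDX6.2. Its change was 0.30 (SE 0.033, limma adjusted p = 8.51e-06), and no library of either guide overlapped the control. DDX1, a subunit of the tRNA ligase complex, rose by 0.15, a call lost with the 4 sgDDX6 libraries as 1 group (adjusted p = 0.0616). DDX20 (Gemin3), a subunit of the SMN complex that builds snRNPs, was called with sgDDX6.1 alone (0.21, adjusted p = 0.0154 with limma, lost without sgNS replicate 2 or sgDDX6.1 replicate 1) and not over both guides (0.058, 95% interval -0.066 to 0.18).

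Ribosome assembly held 16 members, and here the guides parted. Over both guides 7 rose and 0 fell with limma, where 33.8% and 32.9% of all tested genes did. The 43.8% called lay below the 66.7% of all genes. At an unadjusted p under 0.05 the count lower was also 0. With the 4 sgDDX6 libraries as 1 group, 4 rose, where 23.0% of all genes rose, and with a trend on base composition removed 11 did, where 39.2% rose. With sgDDX6.1, 12 of 16 rose and none fell (median 0.26), where 31.8% of all tested genes rose. With sgDDX6.2, 4 rose and 2 fell (median -0.013), where 31.5% rose and 32.7% fell. The 2 that fell became 1 without sgNS replicate 1 or either sgDDX6.2 replicate. The summed level of the 16 was 975 and 957 TPM in sgNS, 1197 and 1168 in sgDDX6.1 and 990.1 and 985 in sgDDX6.2. The sgDDX6.1 libraries stood well above the control. Earlier results of these data had shown ribosome assembly genes higher with sgDDX6.1, so these counts are no independent support for it.

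For the small subunit, DHX37, which removes a guide RNA from the maturing particle, had 13.1 and 13.8 TPM in sgNS, 20.9 and 21.1 in sgDDX6.1, and 17.6 and 17.8 in sgDDX6.2. Its log2 fold change was 0.49 (SE 0.055, limma adjusted p = 9.48e-06) over both guides, 0.61 with sgDDX6.1 and 0.37 with sgDDX6.2. DDX47 had 41.0 and 37.6 TPM in sgNS, 58.3 and 55.7 in sgDDX6.1, and 47.8 and 48.0 in sgDDX6.2, a change of 0.40 (SE 0.048, limma adjusted p = 1.69e-05). DDX10 had 31.8 and 27.4 TPM in sgNS, 45.0 and 42.6 in sgDDX6.1, and 32.7 and 33.4 in sgDDX6.2, a change of 0.36 (SE 0.060, limma adjusted p = 0.00026); both are nucleolar enzymes of small-subunit rRNA processing. All 4 sgDDX6 libraries exceeded both controls for these 3 genes, and the sgDDX6.1 libraries exceeded those of sgDDX6.2. For DDX47, 99.7% of 50-base stretches are shared with other annotated transcripts, chiefly readthroughs assigned to APOLD1. The change of DDX10 averages 0.55 with sgDDX6.1 and 0.16 with sgDDX6.2, the latter not called (limma adjusted p = 0.0646). Its call over both guides was lost with the 4 sgDDX6 libraries as 1 group (adjusted p = 0.0714). DDX49 and DDX52, of the same stage, changed by 0.025 and 0.019 (95% intervals -0.079 to 0.13 and -0.092 to 0.13); DDX52, among the 3 members with the smallest change, had 25.1 and 23.7 TPM in sgNS, 25.3 and 24.9 in sgDDX6.1, and 24.4 and 24.2 in sgDDX6.2.

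For the large subunit, DDX54 had the highest rise of any member, with 31.6 and 33.5 TPM in sgNS, 47.3 and 51.2 in sgDDX6.1, and 50.6 and 51.0 in sgDDX6.2. The change was 0.61 (SE 0.049, limma adjusted p = 7e-07), and the guides did not differ detectably (0.045, 95% interval -0.080 to 0.17). DDX24 had 144 and 145 TPM in sgNS, 183 and 186 in sgDDX6.1, and 166 and 165 in sgDDX6.2, a change of 0.27 (SE 0.033, limma adjusted p = 1.8e-05), smaller with sgDDX6.2. DDX31 had 15.0 and 15.3 TPM in sgNS, 21.6 and 21.5 in sgDDX6.1, and 15.5 and 14.8 in sgDDX6.2: its sgDDX6.1 libraries stood above all others, while the sgDDX6.2 and sgNS libraries overlapped. Its value over both guides, 0.24 (SE 0.055, limma adjusted p = 0.00221), therefore averages 0.48 with sgDDX6.1 and -0.0030 with sgDDX6.2, and the call was lost with the 4 sgDDX6 libraries as 1 group (adjusted p = 0.256). DDX51, DDX55, DDX56 and DDX18, all of the same pathway, were called higher with sgDDX6.1 (0.27, 0.24, 0.23 and 0.17) and not over both guides (0.081, 0.085, 0.10 and 0.025). With sgDDX6.2 their changes were -0.11, -0.068, -0.024 and -0.11, the last of them a call. Without sgDDX6.1 replicate 1, the rises of DDX51 and DDX18 with sgDDX6.1 were lost (adjusted p = 0.0758 and 0.0529). DDX27 was not called in any comparison (0.049 over both guides, 95% interval -0.033 to 0.13).

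DDX21, a nucleolar helicase of rRNA transcription and processing, and its paralog DDX50 lie side by side on chromosome 10; the difference between them was not tested. DDX21 had 212 and 201 TPM in sgNS, 281 and 263 in sgDDX6.1, and 196 and 193 in sgDDX6.2. The sgDDX6.1 libraries were high and the sgDDX6.2 libraries lay just under the control, so the value over both guides, 0.16 (SE 0.038, limma adjusted p = 0.00377), averages 0.40 and -0.086 and was lost with the 4 libraries as 1 group (adjusted p = 0.446). DDX50 had 59.3 and 55.1 TPM in sgNS, 58.2 and 54.2 in sgDDX6.1, and 54.1 and 50.2 in sgDDX6.2, a change of -0.077 (95% interval -0.19 to 0.036); its sgDDX6.1 libraries overlapped the control and its sgDDX6.2 libraries lay just under it. DHX33, which promotes rRNA synthesis, had 25.2 and 26.0 TPM in sgNS, 30.4 and 28.2 in sgDDX6.1, and 21.8 and 21.8 in sgDDX6.2. It rose with sgDDX6.1 (0.18, limma adjusted p = 0.0195) and fell with sgDDX6.2 (-0.22, adjusted p = 0.00649), which left -0.020 over both. The rise was lost without sgNS replicate 1 and without sgDDX6.1 replicate 1 (adjusted p up to 0.0995).

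The guides were also compared with each other, in the same fit to all 6 libraries. In sgDDX6.2 minus sgDDX6.1, 21 of 46 members were lower and 0 higher with limma, where 35.6% of all tested genes were called, 18.6% lower and 17.0% higher; at an unadjusted p under 0.05, 24 were lower and 2 higher. In 31 members both sgDDX6.2 libraries lay under both sgDDX6.1 libraries and in 3 above, against 38.5% and 30.7% of all tested genes. The 16 ribosome assembly members supplied 11 of the 21 (median difference -0.25), and the 30 others 10 (median -0.057); the median over all genes was -0.025. The 5 lowest were DDX31 (-0.48, SE 0.063, limma adjusted p = 0.000213), DDX21 (-0.48, SE 0.044, limma adjusted p = 1.98e-05), DHX33 (-0.41, SE 0.060, limma adjusted p = 0.000482), DDX10 (-0.40, SE 0.069, limma adjusted p = 0.00137) and DDX51 (-0.38, SE 0.079, limma adjusted p = 0.00357), all of them ribosome assembly genes. DDX51 had 13.1 and 13.6 TPM in sgNS, 16.9 and 15.8 in sgDDX6.1, and 11.4 and 13.2 in sgDDX6.2, with the sgDDX6.1 libraries above all others.

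The level of DDX6 did not differ detectably between the guides (-0.0076, 95% interval -0.11 to 0.097). The count of 21 fell to 13 without sgDDX6.1 replicate 1, 11 without sgDDX6.2 replicate 1 and 12 without sgDDX6.2 replicate 2, of which 11, 9 and 9 were ribosome assembly genes. Over all genes the share called lower fell in the same refits from 18.6% to 9.69%, 8.76% and 10.3%. Without sgDDX6.1 replicate 1, 3 members were called higher. DDX19A, DDX24, DDX39B, DDX42, DHX9, DHX15, DHX34, DHX35, DHX36 and DHX37 each lost the call in 2 to 11 of 17 alternatives, sgDDX6.2 replicate 1 left out being among them for every one; the other 11 kept it in all 17. After removal of a trend on base composition, 22 were lower and 3 higher, against 21 and 0, while 24.5% of all genes were lower and 18.7% higher.

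**Figure D3:**
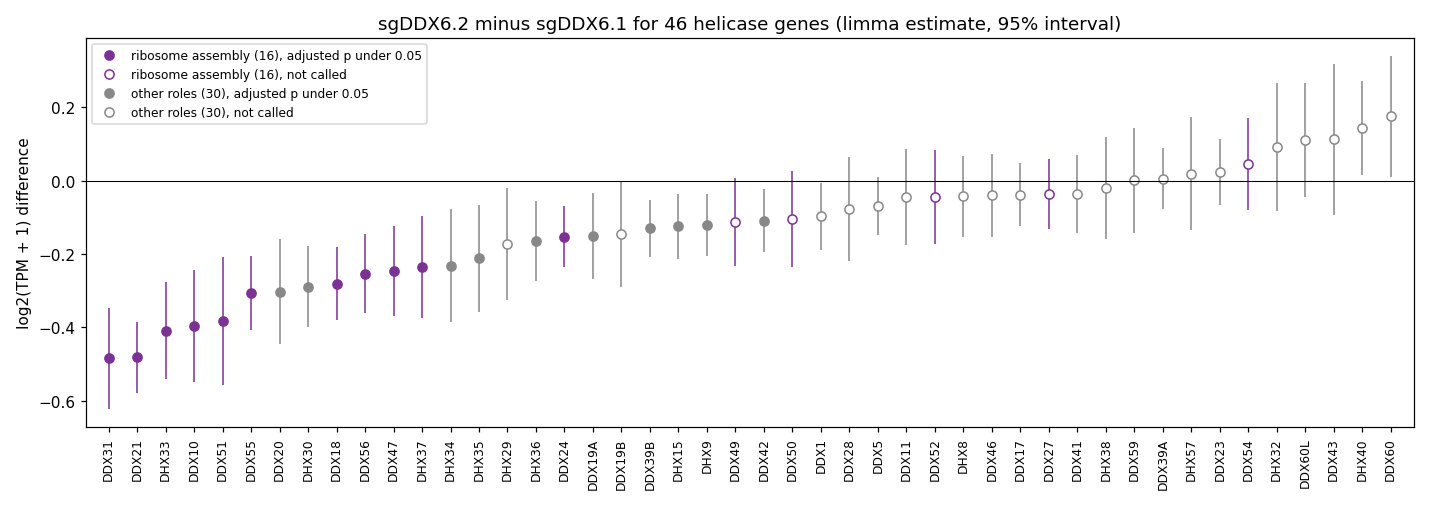
Difference between the DDX6 guides (sgDDX6.2 minus sgDDX6.1, log2(TPM + 1) scale, limma estimate with 95% interval) for each of the 46 members in rising order. Purple marks the 16 ribosome assembly genes and filled points an adjusted p under 0.05; the filled points, 21 in all, lie below 0.

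Of 3 members that act on translation and decay, 1 was called over both guides, where 66.7% of all tested genes were; 3 genes are too few to compare with that share. DHX36, which unwinds G-quadruplexes in mRNA, had 72.3 and 69.1 TPM in sgNS, 70.5 and 66.7 in sgDDX6.1, and 60.8 and 61.4 in sgDDX6.2. Its change of -0.12 over both guides (limma adjusted p = 0.0224) was lost without the variance trend, with the 4 sgDDX6 libraries as 1 group, and without sgNS replicate 1 or either sgDDX6.2 replicate. It came to 0.0045 after removal of a trend on base composition; the sgDDX6.1 and sgNS libraries overlapped. DHX29, which helps ribosomes scan structured leaders, changed by 0.064 (95% interval -0.068 to 0.20). DHX34 of nonsense-mediated decay changed by 0.054 (-0.079 to 0.19). Mitochondrial helicases DDX28 and DHX30, both of mitochondrial ribosome assembly, rose with sgDDX6.1 (0.17 and 0.23, limma adjusted p = 0.0386 and 0.00166) and were not called over both guides (0.13 and 0.090). The rise of DDX28 was lost in 6 of 17 alternatives, when any library other than sgDDX6.1 replicate 2 was left out and with only the groups compared (adjusted p up to 0.147). DHX30 was also lower with sgDDX6.2 than with sgDDX6.1 (-0.29, SE 0.050, limma adjusted p = 0.00131).

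Interferon-induced helicases fell. DDX60 and DDX60L (chr4:168216293-168318807 and chr4:168356735-168537786 in GRCh38, GENCODE release 29) are neighbours on chromosome 4, encode antiviral proteins of the same family, and are the members whose promoters each carry the interferon element core at 2 places, as printed above. DDX60 had 23.9 and 22.0 TPM in sgNS, 13.8 and 12.2 in sgDDX6.1, and 14.8 and 14.7 in sgDDX6.2, a log2 fold change of -0.69 (SE 0.065, limma adjusted p = 2.52e-06). DDX60L had 32.7 and 31.9 TPM in sgNS, 27.3 and 23.6 in sgDDX6.1, and 28.1 and 26.8 in sgDDX6.2, a change of -0.28 (SE 0.061, limma adjusted p = 0.00152). With sgDDX6.2 alone DDX60L changed by -0.23 (limma adjusted p = 0.0141). That call was lost in 3 of 17 alternatives, among them no filter and removal of a trend on base composition. All sgDDX6 libraries lay below both sgNS libraries for each gene, and the guides did not differ at the threshold (adjusted p = 0.0916 and 0.245 with limma). Under 1% of their 50-base stretches occur in other genes, so the paralogs can be told apart in most of their length.

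The falls of DHX40 and DDX59 were of like size. DHX40 (chr17:59565525-59608345), a DEAH-box protein of poorly known function, had, with DDX60, the largest falls among members over both guides, and had 53.2 and 52.8 TPM in sgNS, 32.4 and 29.2 in sgDDX6.1, and 34.1 and 34.1 in sgDDX6.2. The change was -0.69 (SE 0.051, limma adjusted p = 2.89e-07); 24.5% of its 50-base stretches are shared, chiefly with a pseudogene. DDX59 (chr1:200623896-200669969), which is tied to cilia and to an inherited disorder of face and digits, had 30.0 and 28.8 TPM in sgNS, 18.6 and 19.1 in sgDDX6.1, and 19.8 and 18.0 in sgDDX6.2, a change of -0.61 (SE 0.056, limma adjusted p = 1.82e-06) that was nearly equal with each guide (-0.62 and -0.61). For both genes every sgDDX6 library was well under the controls. DHX57 had 12.1 and 11.5 TPM in sgNS, 14.7 and 13.5 in sgDDX6.1, and 14.2 and 14.3 in sgDDX6.2 and rose by 0.25 (SE 0.061, limma adjusted p = 0.00359), with both sgNS libraries below all others. DHX32 had 9.05 and 8.81 TPM in sgNS, 9.18 and 8.22 in sgDDX6.1, and 9.64 and 9.03 in sgDDX6.2, with a change of 0.011 over both guides (95% interval -0.14 to 0.16) that averages -0.035 and 0.057.

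DDX11 is a DNA helicase of sister chromatid cohesion and DDX43 a germline gene often expressed in tumours. DDX11 had 40.2 and 43.5 TPM in sgNS, 34.9 and 32.5 in sgDDX6.1, and 32.7 and 32.6 in sgDDX6.2, a log2 fold change of -0.33 (SE 0.052, limma adjusted p = 0.000166); 42.4% of its 50-base stretches occur in other annotated transcripts, so its level is uncertain. DDX43, whose values are given above, had a change of -0.51 (SE 0.081, limma adjusted p = 0.000179). In both genes the sgDDX6 libraries lay under both sgNS libraries.

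**Figure D4:**
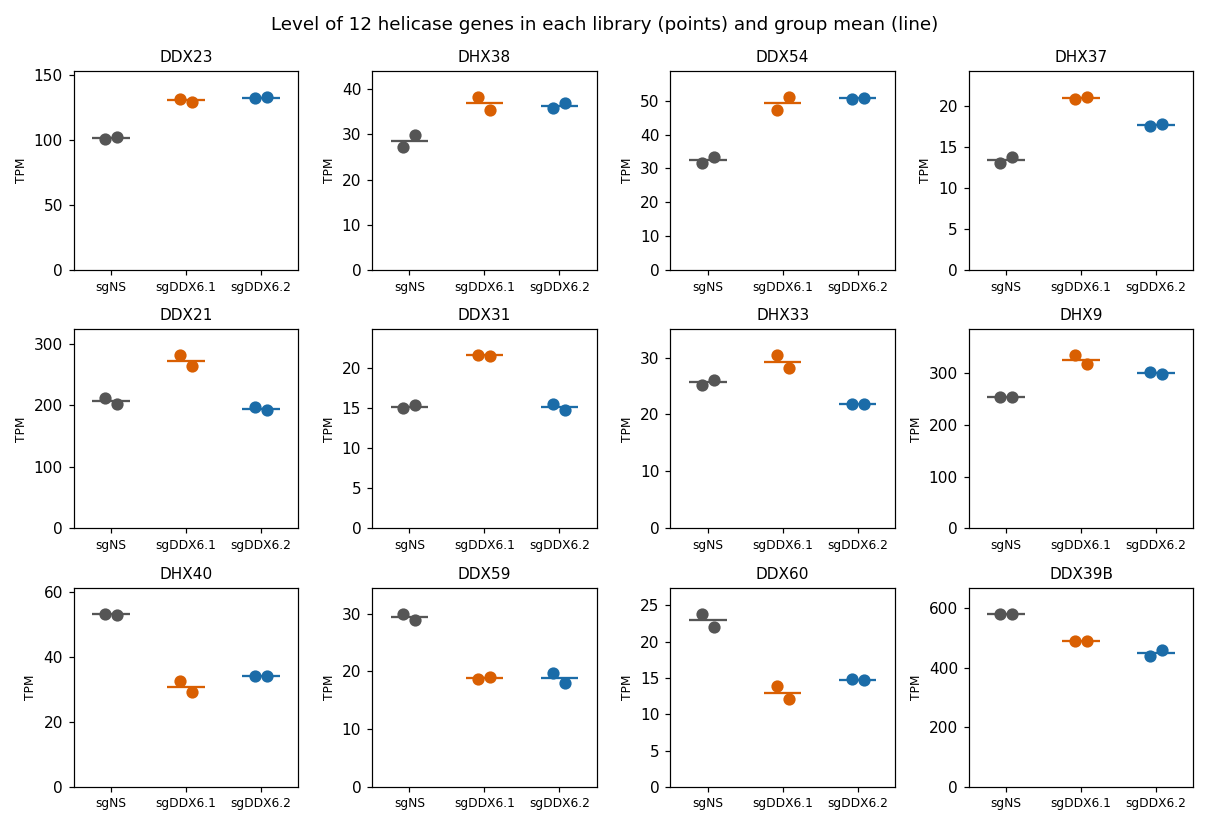
TPM of 12 members in each library (points, 2 per group) with the group mean (line); each axis starts at 0. DDX23, DHX38, DDX54, DHX37 and DHX9 were higher with both guides, DDX21, DDX31 and DHX33 were above the control with sgDDX6.1 and not with sgDDX6.2, and DHX40, DDX59, DDX60 and DDX39B were lower with both.

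Base composition varied with the changes across members. The share of G or C at the last base of codons in the longest coding transcript had a median of 48.5% in the 46 members and 58.4% in 11075 tested genes with a value. Of the 5 that fell furthest, 4 were near the low end, at 35.4% for DHX40, 36.8% for DDX60, 37.2% for DDX59 and 35.3% for DDX43, and DDX11 was at 68.6%. The 5 that rose furthest were spread over the range, at 80.0% for DDX54, 76.6% for DHX37, 44.8% for DDX47, 59.4% for DDX23 and 41.4% for DDX10. Across the 46 members this share correlated with the log2 fold change over both guides at a Pearson r of 0.33 and a Spearman rho of 0.30, and across all tested genes at 0.16 and 0.22. For sgDDX6.2 minus sgDDX6.1 the sign differed, with an r of -0.18 and a rho of -0.20 in the members and 0.20 and 0.20 across all tested genes. These are descriptions across genes of the same 6 libraries, which share any bias of a library toward base composition. With a smooth trend on this share removed from each library, 25 members rose and 10 fell, against 18 and 12, and 70.7% of tested genes were called (39.2% higher, 31.5% lower). Transcript length correlated with the change at an r of 0.019 in the members.

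Helicases without a DDX or DHX name were mixed. Of 18 tested out of 21 listed, 7 rose, 4 fell and 7 were not called over both guides (median 0.044); the 61.1% called is near the 66.7% of all genes. HELZ2, an interferon-responsive member of the UPF1-like group, fell (-0.99), as did the DEAH-like m6A reader YTHDC2 (-0.31). EIF4A3 of the exon junction complex rose by 0.33, SKIV2L of the cytoplasmic exosome by 0.32, UPF1 of nonsense-mediated decay by 0.31, TDRD9 by 0.22 and SNRNP200 of the spliceosome by 0.13.

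Cofactors of DEAD-box and DEAH-box helicases were listed too, among them partners in shared complexes that are not listed as activators. Over both guides, 18 of 46 tested cofactors (48 listed) rose and 13 fell, with a median of 0.026; the 67.4% called is near the 66.7% of all genes. Between the guides 15 were lower with sgDDX6.2 and 0 higher with limma (19 and 0 at an unadjusted p under 0.05), where 18.6% of all genes were lower and 17.0% higher. CTIF, a translation factor with the fold that binds DEAD-box proteins, had a change of -0.87 (SE 0.068, limma adjusted p = 5.12e-07), while EIF4G2 and EIF4G1, scaffolds of that type, rose by 0.41 and 0.36. Among partners of DDX39B, THOC5 fell (-0.55), and ALYREF and POLDIP3 rose by 0.38 and 0.29. GEMIN5, a partner of DDX20 that recognises snRNA, rose by 0.60 (SE 0.056, limma adjusted p = 2.11e-06); GEMIN7 changed by 0.33 and GEMIN8 by -0.32. Of the G-patch proteins, which activate DEAH-box helicases, 6 of 18 rose and 7 fell, where 33.8% and 32.9% of all genes did, with GPATCH4 at 0.40, GPATCH3 at 0.32 and CMTR1 at -0.33. GLE1, which activates DDX19 at the pore, rose by 0.11.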

How the data were processed

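The authors deposited 1 table of TPM values with 2 decimals, made with RSEM 1.2.31 on GRCh38 per the submitters' processing notes. For the aligner and annotation, nothing is given in the sources used here. TPM fixes each library's total at 1000000, so depth is unknown, no counting interval can be given, and a rise in abundant genes lowers the rest. Reads matching more than 1 gene are shared out by RSEM's model.

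From the TPM, log2(TPM + 1) was computed for the 11151 genes that reached a TPM of 1 in 2 libraries. Means of 3 groups were fitted with limma 3.58.1 in R 4.3.3. The fit used a variance trend, 3 residual degrees of freedom and two-sided tests. Adjustment was by Benjamini-Hochberg over all genes within each comparison, at a threshold of 0.05. The procedure was tried on simulated data with independent noise, in which a small set of genes changed equally with both guides. Only the comparison over both guides was checked there, so that trial does not bear on single-guide or between-guide calls. Fold changes on this scale understate those of low genes. The sgNS libraries are shared by all comparisons with sgNS. With 2 libraries a group, both values are printed in place of a mean and SD. The members, role lists and tests were chosen with earlier results of these data known. Each member was put by hand, from general knowledge, in 1 role; DDX5, DDX17, DHX9 and DHX36 act in several, and the counts by role depend on this.

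Values are given for up to 3 called members per role, paralog pairs, the 5 lowest between guides, the 3 most abundant and the 3 least changed; the others are given by fold change. Some genes of the lists are not reported here. Transcripts and coordinates are from GENCODE release 29, in which 98.6% of symbols were found, and promoters from RefSeq (GRCh38.p14). Alternatives were pseudocounts of 0.1 and 5, no filter, a TPM filter of 5, quantile normalization, median centring, no variance trend, robust estimation, a replicate term, leaving out each library, only the groups compared, and the sgDDX6 libraries as 1 group. Removal of a loess trend on GC at the last base of codons was chosen after seeing the data.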

Additional observations from a re-analysis of the deposited data

Results flagged for a closer look

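DDX18 and DHX33, both of ribosome assembly, were called against sgNS in opposite directions by the DDX6 guides and differed between the guides in the direct limma test. DDX18 had 127 and 123 TPM in sgNS, 145 and 136 in sgDDX6.1, and 116 and 114 in sgDDX6.2; its log2 fold change was 0.17 with sgDDX6.1 and -0.11 with sgDDX6.2, a difference of -0.28 (adjusted p = 0.00086). The fall of DDX18 with sgDDX6.2 was lost in 7 of 17 alternatives, among them without either sgNS or either sgDDX6.2 replicate, and changed sign in 1 other. Its rise with sgDDX6.1 was lost without sgDDX6.1 replicate 1 (adjusted p = 0.0529). The rise of DHX33 with sgDDX6.1 was lost in 2, without sgNS replicate 1 and without sgDDX6.1 replicate 1. For DHX33 the difference was -0.41 (adjusted p = 0.000482), from 0.18 to -0.22. Of the 21 members that differed between the guides, 10 had estimates of opposite sign against sgNS, whatever their size. DDX31, at -0.0030 with sgDDX6.2, was among the 10. DDX18 and DHX33 were the 2 of them called with both guides. The same counts were not made over all genes tested, so whether 10 or 2 is many for helicases is unknown.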

How the results depend on the processing

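Of 3128 refitted member values (46 members, 4 comparisons, 17 alternatives), 2920 kept their side of the threshold and, where called, their sign; 130 lost a call, 76 gained one, and 2 changed sign: DHX36 over both guides (0.0045) and DDX18 with sgDDX6.2 (0.0053), both after removal of the trend on GC at the last base of codons. The count of members higher with sgDDX6.2 than with sgDDX6.1 was 0 as reported, 1 under quantile normalization, 1 under median centring, 2 with the replicate block and 3 with the GC trend removed; leaving out a library gave 0 to 3. The count lower was 11 to 20 when a library was left out. Ribosome assembly members higher over both guides, 7 as reported, were 4 with the sgDDX6 libraries as 1 group and 11 with the GC trend removed. Those lower with sgDDX6.2, 2 as reported, were 1 with no filter, median centring or no variance trend, 4 with the replicate block and 1 to 2 when a library was left out. Spliceosome members higher with sgDDX6.2, 5 as reported, were 3 with no variance trend and 3 to 5 when a library was left out. The 1 spliceosome member lower with sgDDX6.1 was 0 with no variance trend, the GC trend removed or only the groups compared, and 0 to 1 when a library was left out; that over both guides was 0 with the GC trend removed. The counts over all 46 members against sgNS stayed within 1.5 times in every alternative run. With the sgDDX6 libraries as 1 group, the rises of DDX1, DDX10, DDX21, DDX31, DHX8 and DHX35 and the fall of DHX36 were lost. In that refit 23% of all genes rose and 23.7% fell, against 33.8% and 32.9% as reported. The median over both guides (0.053 to 0.087 when a library was left out) moved by less than 0.047. That value is the median within-group SD of single members on the log2 scale, and not the spread of a median over 46 genes. With the replicate block, 21 members rose and 12 fell over both guides, where 35.6% of all genes rose and 34.9% fell. Between the guides 24 members were then lower, where 23.5% of all genes were. The replicate numbers are not stated to mark a shared culture or day, and same-numbered libraries deviated together unevenly (correlations across genes of 0.26, 0.098 and 0.040 between groups), so they were not taken as pairs. Depth is unknown, and 2 libraries a group limit the precision of every value.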
